A study of Mus musculus with 20 samples.

Results

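Fetal liver blood progenitors that lack a Gata2 enhancer and carry GATA2 with the protein change R307W were compared with wild-type progenitors, to read where the variant-expressing cells fell short of normal cells and where they went past them. The comparison takes 8 of the 20 RNA-seq libraries, chosen by their labels: 4 named as enhancer-null cells with the R307W vector and 4 named as wild-type controls. The other 12 libraries, 4 each of enhancer-null cells given an empty vector, unchanged GATA2 or GATA2 T354M, serve as reference levels.

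All cells were labelled as hematopoietic progenitors without lineage markers, and the wild-type records place them in fetal liver of C57BL/6J mice at E14.5. Wild-type cells received a control retrovirus, and the R307W cells, whose -77 enhancer of Gata2 is deleted, received an MSCV retrovirus that codes for GATA2 R307W. All were cultured for 3 days before total RNA was taken, and for wild-type cells the medium held IL-3 and stem cell factor conditioned medium, 4% of each, and 20% serum. The R307W records give neither the age, the strain nor the medium, so differences in handling cannot be told apart from the comparison. The records of empty-vector and GATA2 cells give age and medium, and those of T354M cells do not. Handling therefore cannot be told apart either where R307W is set against the empty vector or GATA2. The 2 groups differ in the enhancer as well as in the protein, and the vector's promoter replaces the control that the gene itself has. No label says whether replicates came from separate cultures or animals, so p-values here speak only of how far these libraries scatter.

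GATA2 is a zinc finger transcription factor that keeps blood stem and progenitor cells going and drives the basophil and mast cell lineages. As red cell and megakaryocyte precursors mature, GATA1 takes over at many of the same sites, which carry the motif WGATAR, and both factors work in complexes with TAL1, LMO2 and LDB1 and with the cofactor FOG1, the product of Zfpm1. The arginine that R307W replaces lies in the N-terminal zinc finger, which binds FOG1 and steadies DNA binding, and the threonine of T354M in the C-terminal finger, which makes the main contact with DNA.

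Totals ran from 22330475 to 26843817 expected counts in the wild-type libraries and from 22785884 to 33245876 in the R307W libraries. The mitochondrial ribosomal RNA mt-Rnr2 took 17.9 to 24.6% of the wild-type counts and 18.4 to 19.3% of the R307W counts. Replicate 4 of R307W stood apart from its group: on the second principal component, with 21.5% of the variance of all 20 libraries, it lay at -71.55 and the other 3 between -20.61 and -12.86. The same number was lowest on this component in 2 other groups. With GATA2 replicate 4 lay at -54.16 (others -25.52 to -7.77), and with T354M at -54.15 (others -12.39 to 11.73). Values without R307W replicate 4 are given for some of the calls that turned on it. Of 221 named genes called between R307W and wild-type, 12 lost the call without it. The embryos differed in sex genes within both groups: Xist, which marks female cells, was at 0.344 CPM in wild-type replicate 2, and the Y-linked Ddx3y at 0 in wild-type replicate 3 and R307W replicate 4.

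Gene levels are given as CPM, counts relative to library size after scaling by the TMM method, as mean ± SD of 4 libraries a group. A difference is R307W minus wild-type on the log2 scale with its standard error (SE), and a gene counts as changed at a Benjamini-Hochberg adjusted p under 0.05 in the quasi-likelihood test of edgeR. Of 15835 genes tested, 5310 changed, which is 33.5%, with 2614 higher (16.5%) and 2696 lower (17%) in R307W cells. At least 2-fold differences were less even, with 780 genes higher (4.93%) and 1533 lower (9.68%), 14.6% in all. For 4139 genes, 26.1%, all 4 libraries of either group lay above all 4 of the other, 12.7% with R307W above and 13.4% with R307W below. On log2(TPM + 1) with limma 4915 genes changed, and 63.1% of them were higher, against 49.2% of the calls on counts. In such bulk samples fewer cells of a type and less RNA per cell cannot be told apart.

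**Figure D1:**
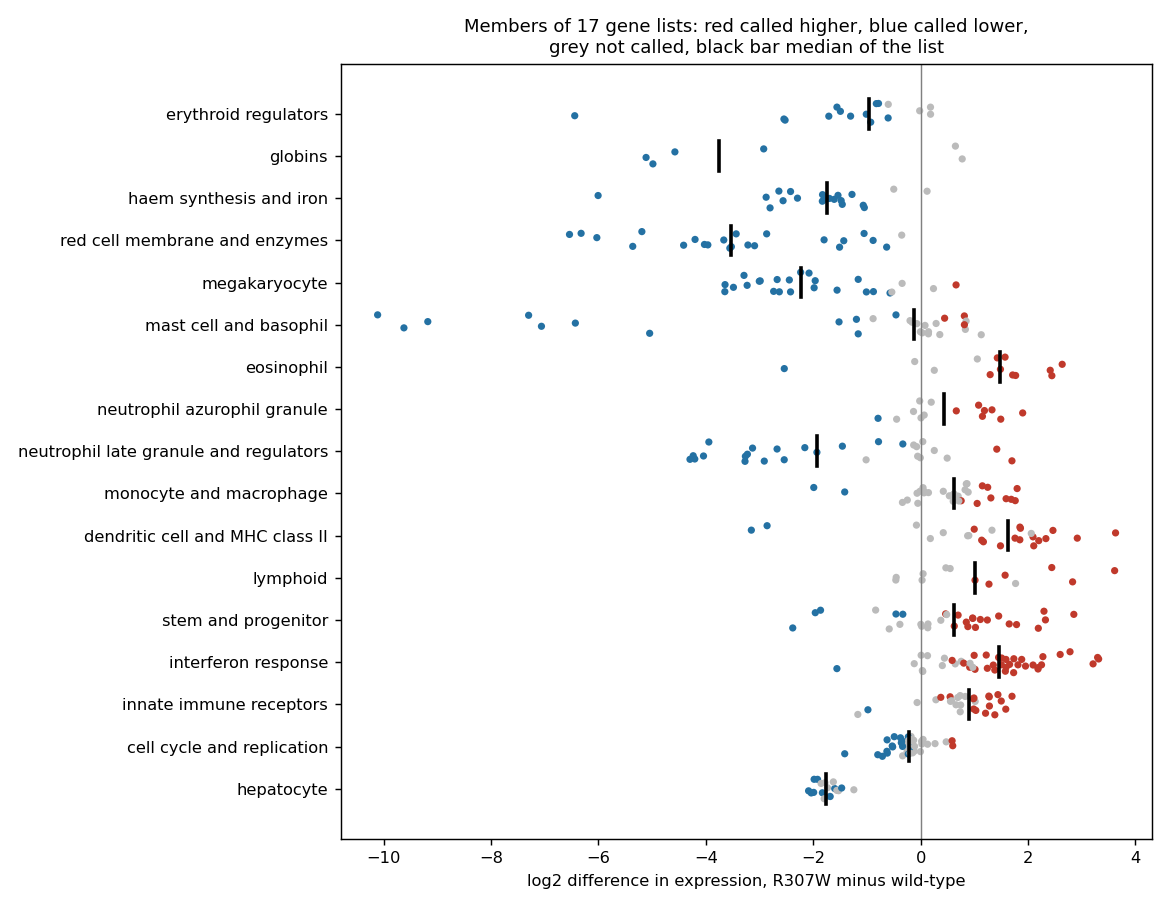
Log2 difference in expression (R307W minus wild-type, horizontal axis) of each tested member of 17 gene lists. Each point is a gene, red if called higher, blue if called lower and grey if not called, and the black bar is the list's median, which was -3.52 for red cell membrane genes, 1.49 for eosinophil genes and 1.45 for interferon response genes.

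Gata2 itself reached wild-type levels in the R307W cells. It had 53.0, 31.5, 41.8 and 50.9 CPM in wild-type replicates 1 to 4 and 50.0, 40.0, 39.5 and 89.5 CPM in R307W replicates 1 to 4. The ranges overlap, and replicate 4 of R307W is the highest of the 8. The means were 44.3 ± 9.80 and 54.8 ± 23.7 CPM (log2 difference 0.31, SE 0.32, adjusted p = 0.511), against 5.79 ± 1.30 CPM in enhancer-null cells with an empty vector. On log2(TPM + 1) the gene was called higher (0.80, limma adjusted p = 0.0293). These counts cannot separate reads of the vector from reads of the gene on chromosome 6 (GRCm38, 88193891 to 88207032).

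Of the 10 tested GATA factors and partners, 5 fell (Gata1, Zfpm1, Tal1, Lmo2 and Ldb1), 2 rose (Runx1 and Spi1) and Gata2, Lyl1 and Med1 were not called. Gata1 had 88.5, 79.8, 102 and 92.7 CPM in the wild-type libraries and 35.6, 28.2, 22.9 and 59.9 CPM in the R307W libraries. No R307W library reached the lowest wild-type one, and the mean of 36.7 ± 16.3 CPM was 40.4% of the wild-type mean of 90.7 ± 9.20 (log2 difference -1.30, SE 0.34, adjusted p = 0.00557). Gata1 was at 5.52 ± 1.31 CPM with an empty vector and 48.6 ± 18.2 CPM with GATA2 in enhancer-null cells. Tal1, the partner that joins GATA factors to E-box sites, fell 1.71 on the log2 scale (SE 0.17, adjusted p = 3.02e-07), from 142 ± 21.3 to 43.4 ± 8.29 CPM. Zfpm1, which encodes FOG1, went from 42.6 ± 21.6 to 14.4 ± 6.00 CPM (-1.56, SE 0.43, adjusted p = 0.00933), while R307W replicate 4 at 22.8 CPM lay above the lowest wild-type library at 17.8 CPM. Lmo2 and Ldb1, the bridging proteins of the complex, fell by 0.93 and 0.81 on the log2 scale.

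The 2 that rose act in blood progenitors and in myeloid cells. Runx1, a core factor of blood progenitors, had 96.4, 83.3, 90.5 and 132 CPM in wild-type cells and 202, 139.5, 170.5 and 269 CPM in R307W cells, so the groups do not overlap (1.94-fold higher, log2 difference 0.96, SE 0.21, adjusted p = 0.0014). Spi1, which encodes the myeloid factor PU.1, had 40.3, 37.8, 28.8 and 38.5 CPM in wild-type cells and 48.4, 93.6, 66.6 and 59.0 CPM in R307W cells. All R307W libraries lay above all wild-type ones (1.84-fold, adjusted p = 0.00125).

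Red cell genes showed a deep shortfall. None of the erythroid regulators, globins, haem and iron genes or red cell membrane genes was called higher, and 12 of 16, 4 of 6, 18 of 20 and 22 of 23 tested members of these lists fell. Their median log2 differences were -0.97, -3.75, -1.75 and -3.52, against 0.01 over all genes tested. Summed over the membrane and enzyme list, wild-type libraries held 3909 to 5518 CPM and R307W libraries 452.8 to 855.9.

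Among the regulators, Klf1, the erythroid Krüppel-like factor, had 74.8, 48.2, 81.4 and 79.9 CPM in wild-type cells and 11.9, 7.55, 7.06 and 21.9 CPM in R307W cells. The groups are far apart, and the R307W mean was 17.1% of the wild-type mean (log2 difference -2.55, SE 0.39, adjusted p = 4.58e-05). Enhancer-null cells with an empty vector had 2.21 ± 0.612 CPM, cells with GATA2 18.0 ± 10.6 and cells with T354M 1.85 ± 0.577. Epor, the erythropoietin receptor, fell from 33.6 ± 10.6 to 5.80 ± 2.84 CPM (-2.52, SE 0.40, adjusted p = 7.09e-05), and Gfi1b, a repressor needed by red cells and megakaryocytes, from 70.5 ± 16.7 to 25.0 ± 11.6 CPM. Nfe2, a factor that both lineages share, was not called, with 105 to 124 CPM in wild-type and 112 to 160.1 CPM in R307W libraries (0.18, SE 0.13, adjusted p = 0.287). The deepest fall among the regulators was that of Trim10, a RING-type protein of late red cell development, from 27.2 ± 4.33 to 0.309 ± 0.194 CPM (-6.44, SE 0.35, adjusted p = 3.38e-10).

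The promoter of Trim10 is shown because this gene fell most among the erythroid regulators. It runs over chr17:36869324-36869623 on the plus strand of GRCm38.p6, from 250 bases before to 50 after the start, as RefSeq gives it. The capitals mark AGATAA on the opposite strand, 163 bases before the start. Both strands were searched for the spellings of WGATAR, which are the motif AGATAA, the motif TGATAA, the motif AGATAG and the motif TGATAG, and 29.8% of 32851 such promoters hold at least 1 of them.
Trim10: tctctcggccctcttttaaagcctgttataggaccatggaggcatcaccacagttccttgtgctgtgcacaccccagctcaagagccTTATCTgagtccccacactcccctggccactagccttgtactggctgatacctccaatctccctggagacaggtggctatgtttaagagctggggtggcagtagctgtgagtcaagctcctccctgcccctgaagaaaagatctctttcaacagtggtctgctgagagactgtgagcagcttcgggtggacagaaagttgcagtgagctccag

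The genes of the mature red cell fell further. Slc4a1, the band 3 anion exchanger, had 186, 258, 262 and 350.1 CPM in wild-type replicates 1 to 4 and 1.33, 5.97, 2.89 and 1.24 CPM in R307W replicates 1 to 4. The mean fell 93.0-fold, from 264 ± 67.0 to 2.86 ± 2.21 CPM (log2 difference -6.54, SE 0.50, adjusted p = 1.91e-08). That is under the 8.42 ± 3.19 CPM of enhancer-null cells with an empty vector (R307W minus empty -1.57, SE 0.44, adjusted p = 0.0199). Alas2, which makes the first haem precursor in red cells, had 39.4 to 106 CPM in wild-type libraries and 0.914, 2.12, 0.991 and 0.936 CPM in R307W libraries. It fell 64.3-fold (adjusted p = 8.43e-07). The cytoskeletal proteins that line the membrane showed the same direction: Sptb, beta spectrin, fell 36.5-fold and Ank1, ankyrin, 21.3-fold.

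Hbb-bs, an adult beta globin, had 1300, 1822, 1768 and 2490 CPM in wild-type cells and 39.4, 88.3, 49.9 and 132 CPM in R307W cells. The ranges are far apart (23.9-fold lower, log2 difference -4.58, SE 0.63, adjusted p = 1.56e-05). The alpha globin Hba-a1 went from 512 ± 192 to 14.7 ± 9.54 CPM. Hba-a1 and Hba-a2, and Hbb-bs and Hbb-bt, are near-identical copies whose reads the counting may have shared out, so each pair is best read together. The embryonic globins Hbb-y and Hba-x were not called, at 2.05 ± 0.807 against 3.47 ± 3.54 CPM and 0.579 ± 0.283 against 0.892 ± 1.04 CPM.

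Haem enzymes and iron carriers fell as a block. Uros and Fech, enzymes of the haem pathway, fell by 2.88 and 2.64 on the log2 scale (SE 0.11 and 0.11). Tfrc, the transferrin receptor through which cells take up iron, kept 666 ± 114 of 1833 ± 404 CPM (-1.46, SE 0.14, adjusted p = 3.34e-07). The exceptions were Ftl1, the ferritin light chain, at 1025 ± 279.7 and 1114 ± 327 CPM (adjusted p = 0.747), and Hmox1, which breaks haem down (adjusted p = 0.226).

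Red cell genes differed in how much R307W cells had of them relative to enhancer-null cells without it. Kel, which carries the Kell blood group, had 85.5, 104, 143 and 119.8 CPM in wild-type cells and 42.3, 19.0, 14.6 and 91.2 CPM in R307W cells. Replicate 4 of R307W lay inside the wild-type range and the other 3 below it (-1.43, SE 0.44, adjusted p = 0.016). The call was lost without R307W replicate 2 or 3 (adjusted p = 0.0593 and 0.0512). Kel was at 2.97 ± 0.548 CPM with an empty vector and 1.54 ± 0.407 CPM with T354M. Car1, a carbonic anhydrase, was the only member of the membrane and enzyme list without a call, at 10.4 ± 1.48 and 8.14 ± 4.02 CPM (adjusted p = 0.504), and it had 0.206 ± 0.0673 CPM with an empty vector. Against the empty vector, where 17.5% of all genes changed, 10% higher and 7.48% lower, 13 of the 23 members were higher in R307W cells and Slc4a1 alone was lower, while against T354M 15 were higher and none lower, in a comparison where 3.49% of genes changed, 2.3% higher and 1.19% lower. The wild-type comparison and these share the R307W libraries.

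**Figure D2:**
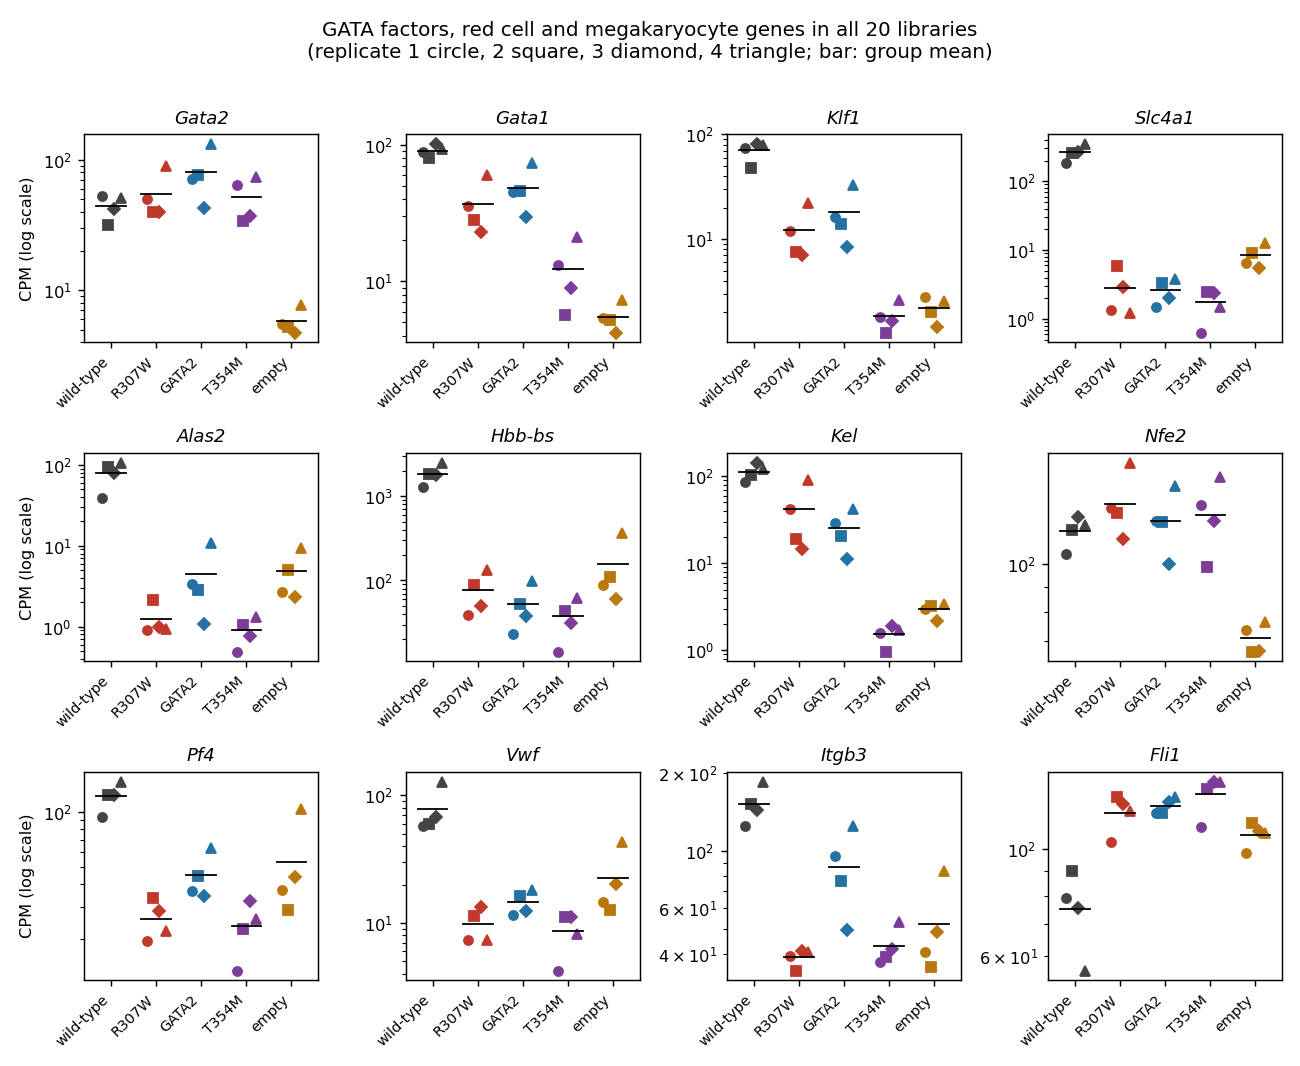
CPM (log scale) of 12 GATA factor, red cell and megakaryocyte genes in the 20 libraries, grouped as wild-type, R307W, GATA2, T354M and empty vector. Marker shapes give the replicate number and bars the group means. Gata2 overlaps between wild-type and R307W, Gata1 and Klf1 lie between wild-type and empty vector, and Slc4a1 and Alas2 lie far below wild-type in all enhancer-null groups.

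Megakaryocyte genes fell too: 21 of 25 tested members were lower, Fli1 was higher, and Cd9, Nbeal2 and Slc35d3 were not called (median log2 difference -2.23). Pf4, platelet factor 4, had 93.2, 124, 124 and 146 CPM in wild-type cells and 19.5, 33.4, 28.5 and 22.1 CPM in R307W cells. The groups do not overlap, and the mean fell 4.71-fold (log2 difference -2.23, SE 0.34, adjusted p = 5.4e-05). Ppbp, another platelet chemokine, fell 9.39-fold, and Vwf, von Willebrand factor, fell from 78.0 ± 33.5 to 9.86 ± 2.97 CPM (-2.99, SE 0.39, adjusted p = 9.94e-06). Itgb3, the integrin subunit of the fibrinogen receptor, had 152 ± 25.3 CPM in wild-type cells and 38.9 ± 3.04 in R307W cells, where Itga2b, its partner chain, had 48.9 ± 7.68 of 109.5 ± 26.2 CPM.

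This list did not rise with the vector. Against enhancer-null cells with an empty vector, 8 megakaryocyte genes were lower in R307W cells and none higher; Pf4 had 53.2 ± 33.9 CPM there (R307W minus empty -1.04, SE 0.33, adjusted p = 0.038). Fli1, an ETS factor that drives the lineage, had 79.3, 90.1, 75.6 and 56.0 CPM in wild-type cells and 103, 128, 124 and 119.9 CPM in R307W cells. Every R307W library was above every wild-type one (1.58-fold, adjusted p = 0.000142), so this regulator and the platelet genes moved in opposite directions.

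Eosinophil genes were mostly above wild-type level in R307W cells. Of 13 tested, 9 rose, Epx fell, and Ccr3, Cebpe and Ear6 were not called (median log2 difference 1.49). The summed list held 976.2, 1304, 1337 and 954 CPM in wild-type replicates 1 to 4 and 3163, 2937, 1864 and 4358 CPM in R307W replicates 1 to 4. Without R307W replicate 4 the number that rose was 6. Against enhancer-null cells with an empty vector 12 of the 13 were called higher with R307W, and Adgre4, an adhesion receptor, was not called. Enhancer-null cells with GATA2 were above wild-type too, with 7 of the 13 called higher and none lower (median 1.34), and the summed list held 2540 to 4563 CPM with GATA2 and 1484 to 6493 CPM with T354M. Between R307W and GATA2 2 of the 13 were called, Siglecf higher and Epx lower with R307W, and these comparisons share libraries. Other settings called further members. Ear2 was higher with R307W with DESeq2 (adjusted p = 0.0151), without the filter on low counts (0.00506) and with the replicate number as a block (0.0347). Csf2rb was lower with R307W with that block (0.02485) and without R307W replicate 4 (0.0274).

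Prg3, an eosinophil granule proteoglycan, had 33.5, 41.4, 46.9 and 26.4 CPM in wild-type cells and 241, 221, 170.5 and 288 CPM in R307W cells. The lowest R307W library held more than 3 times the highest wild-type one, and the mean was 6.22-fold higher (log2 difference 2.64, SE 0.37, adjusted p = 1.88e-05). Il5ra, the receptor chain for the eosinophil growth factor IL-5, had 6.78, 7.90, 7.61 and 5.55 CPM in wild-type cells and 42.1, 30.2, 28.4 and 50.4 CPM in R307W cells. It too did not overlap (5.44-fold, SE 0.30 on the log2 scale, adjusted p = 4.2e-06). Siglecf, a surface lectin of mouse eosinophils, had 24.2 to 29.1 CPM in wild-type libraries and 79.7, 79.1, 72.0 and 122 CPM in R307W libraries (3.28-fold, adjusted p = 2.13e-06). In enhancer-null cells with GATA2 it was at 50.1 ± 6.27 CPM, under the 88.1 ± 22.7 CPM with R307W (difference 0.81, SE 0.19, adjusted p = 0.0345, in a comparison where 1.73% of genes changed, 0.587% higher and 1.14% lower). That call was lost without any 1 of the 4 GATA2 libraries or without R307W replicate 1, 2 or 4, at adjusted p = 0.0517 to 0.118.

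Prg2, major basic protein, had 406, 600.1, 636 and 376 CPM in wild-type cells and 1449, 1403, 788 and 1792 CPM in R307W cells. The groups do not overlap (2.69-fold, log2 difference 1.43, SE 0.46, adjusted p = 0.0207), but the call was lost without R307W replicate 4, wild-type replicate 1 or wild-type replicate 4 (adjusted p = 0.0532, 0.0546 and 0.0554). Ear2, an eosinophil-associated ribonuclease, had 34.4, 64.6, 64.4 and 39.5 CPM in wild-type cells and 295, 227, 107 and 451 CPM in R307W cells. All R307W libraries were above all wild-type ones (5.33-fold, adjusted p = 0.000823). Its neighbours Ear1 and Ear6 share much of its sequence, so reads may be split between them. Ear1 was barely called (adjusted p = 0.0487) and lost the call without any 1 of the 4 wild-type libraries or without R307W replicate 1, 2 or 4, at adjusted p = 0.058 to 0.16. Alox15, a lipoxygenase of eosinophils, rose from 25.5 ± 4.22 to 75.7 ± 41.1 CPM (adjusted p = 0.0352) and lost its call without R307W replicate 4 (adjusted p = 0.128), R307W replicate 1 or wild-type replicate 1, 2 or 4.

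Epx, eosinophil peroxidase, went the other way. It had 81.7, 61.8, 68.8 and 65.7 CPM in wild-type cells and 11.1, 14.6, 5.70 and 16.2 CPM in R307W cells. Every R307W library was below every wild-type library, and the mean fell 5.81-fold (log2 difference -2.54, SE 0.46, adjusted p = 0.000275). The gene had 287 ± 74.3 CPM in cells with GATA2, 536 ± 454 with T354M and 0.114 ± 0.129 with an empty vector. Against GATA2 the R307W cells were lower by -4.58 (SE 0.50, adjusted p = 8.81e-05) and against T354M by -5.49 (SE 0.52, adjusted p = 5.42e-06). The granule genes Prg3 and Prg2 had no call in either of those 2 comparisons.

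The promoters of Prg3 and Epx are shown side by side as eosinophil granule genes that moved in opposite directions. That of Prg3 covers chr2:84987965-84988264 on the plus strand and that of Epx chr11:87875487-87875786 on the minus strand, from RefSeq on GRCm38.p6 over the same 250 bases before and 50 after the start. In Prg3 the capitals mark TGATAA on the opposite strand, 123 bases before the start, and the window of Epx holds none of the 4 motifs.
Prg3: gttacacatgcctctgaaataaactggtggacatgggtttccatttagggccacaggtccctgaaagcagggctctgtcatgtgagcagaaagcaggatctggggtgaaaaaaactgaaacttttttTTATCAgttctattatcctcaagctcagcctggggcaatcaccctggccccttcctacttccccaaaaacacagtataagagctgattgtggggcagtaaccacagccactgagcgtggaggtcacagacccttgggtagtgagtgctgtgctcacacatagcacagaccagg
Epx: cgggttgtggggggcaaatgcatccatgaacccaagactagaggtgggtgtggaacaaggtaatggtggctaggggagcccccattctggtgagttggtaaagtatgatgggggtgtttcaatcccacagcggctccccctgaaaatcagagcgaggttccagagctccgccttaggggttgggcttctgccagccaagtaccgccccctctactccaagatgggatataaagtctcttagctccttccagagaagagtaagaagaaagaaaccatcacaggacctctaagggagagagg

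Mast cell and basophil genes did not move together. Of 28 tested, 3 rose, 11 fell and 14 were not called, where 16.5% of all genes tested rose and 17% fell. The list's median was -0.11 on the log2 scale. The listed genes that fell include the tryptases and chymases of mast cell granules. Tpsb2, a tryptase, had 12.4, 17.5, 11.9 and 20.6 CPM in wild-type cells, and in R307W cells a single count in replicate 2 (0.0386 CPM) and none in the other 3. Wild-type libraries held 1456 counts of it, a ratio of 1701 with an exact 95% counting interval of 304.8 to 67230. Mcpt4, a chymase, had 345 counts in wild-type cells and none in R307W cells, which makes it at least 134-fold lower if the 4 libraries together are given 3 counts, and Mcpt1, another, was at least 99.7-fold lower. These bounds take in counting error alone, and reads may be shared between members of these protease families.

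Cma1, mast cell chymase 1, had 45.0, 88.7, 64.8 and 59.3 CPM in wild-type cells and 1.37, 0.694, 0.578 and 4.86 CPM in R307W cells. Even the highest R307W library, replicate 4, was far below the lowest wild-type one (33.0-fold, log2 difference -5.05, SE 0.79, adjusted p = 6.54e-05). Tph1, which makes the serotonin of mast cells, had 6.74 to 14.7 CPM in wild-type libraries and 0 to 0.121 CPM in R307W libraries (-7.06, SE 0.95, adjusted p = 1.27e-05). Hapln1, a hyaluronan link protein outside the list, had 615 counts in wild-type and 2 in R307W libraries, a ratio of 359 (interval 99.0 to 2973).

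Among the 14 members without a call were Ms4a2, Il1rl1 and Prss34. Ms4a2, the beta chain of the IgE receptor, had 34.3, 41.1, 44.5 and 22.8 CPM in wild-type cells and 35.3, 25.1, 20.9 and 76.3 CPM in R307W cells. The ranges overlap, with replicate 4 of R307W above all others (log2 difference 0.15, SE 0.47, adjusted p = 0.844). Il1rl1, the IL-33 receptor, had 102 to 139.7 CPM in wild-type libraries and 123, 72.1, 69.0 and 208 CPM in R307W libraries, with means of 118 ± 16.8 and 118 ± 64.8 CPM (adjusted p = 0.995). Prss34, a basophil protease, had 35.5 to 60.6 CPM in wild-type libraries and 57.9, 54.0, 36.6 and 166 CPM in R307W libraries (adjusted p = 0.344). These 3 genes were at 1.86 ± 0.167, 4.52 ± 1.29 and 2.52 ± 2.15 CPM with an empty vector. A p that misses the threshold does not show equal levels, and the SE for Ms4a2 was 0.47 on the log2 scale.

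Cpa3, carboxypeptidase A3, is made by both cell types. Its values were 236, 382, 338 and 244 CPM in wild-type cells and 115, 75.2, 70.5 and 158 CPM in R307W cells, with no overlap (2.87-fold lower, adjusted p = 0.00432). Mcpt8, a basophil protease, had 57.7 to 102 CPM in wild-type libraries and 34.5, 30.4, 18.4 and 57.8 CPM in R307W libraries (-1.20, SE 0.38, adjusted p = 0.0204). Replicate 4 of R307W matched the lowest wild-type library, and the call was lost without R307W replicate 2 or 3 or wild-type replicate 3, at adjusted p = 0.0606, 0.0759 and 0.0603. Kit, the stem cell factor receptor, went from 122 ± 17.8 to 88.5 ± 8.14 CPM (adjusted p = 0.009; 0.0522 without wild-type replicate 4). Those that rose were Fcer1g, the shared Fc receptor chain (1.36-fold), Srgn, the granule proteoglycan serglycin, and Hdc, which makes histamine.

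Srgn had 343, 429, 402 and 269 CPM in wild-type cells and 485, 613, 509 and 931 CPM in R307W cells, all above the wild-type range (1.76-fold, adjusted p = 0.00345). Hdc had 226, 261, 250.0 and 218 CPM in wild-type cells and 371, 373, 357 and 580.1 CPM in R307W cells. These ranges do not overlap either (1.76-fold, adjusted p = 0.0342), but without R307W replicate 4 the difference was 0.62 on the log2 scale with an adjusted p of 0.119, and the call was also lost without wild-type replicate 1, 3 or 4 (0.0706, 0.05 and 0.0692).

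Unchanged GATA2 gave a different picture for this list. In enhancer-null cells with GATA2, 15 of the 28 genes were higher than in wild-type cells and 2 lower, in a comparison where 30.7% of genes changed, 14.7% higher and 16% lower, and R307W cells were lower than GATA2 cells in 12 and higher in none. These comparisons share libraries with the one against wild-type cells. Mcpt8 was at 644 ± 337 CPM, Ms4a2 at 189.9 ± 65.7 and Prss34 at 566 ± 256 CPM with GATA2. R307W was lower than GATA2 in each of these 3 (adjusted p = 5.79e-05, 0.0174 and 0.0325). The count of 12 was 7 without GATA2 replicate 4 and 7 without R307W replicate 1, 2 or 3. Without any of these 4 libraries the call of Ms4a2 was lost (adjusted p = 0.0666 to 0.0801), and so was that of Prss34 (0.112 to 0.131), which was also lost without GATA2 replicate 1 (0.0625). With the replicate block the count was 17. Tpsb2 had 11.3 ± 13.4 CPM and Tph1 9.04 ± 9.91 CPM with GATA2. These means were near the wild-type levels, but each SD exceeded its mean, so the GATA2 libraries differed widely. For Il1rl1 the difference of -1.67 had an adjusted p of 0.129. With the replicate number as a block it was -1.69 with an adjusted p of 0.0225, though the labels do not say what the number marks. Cyp11a1, Cd200r3 and Slc18a2, other basophil or mast cell genes, were likewise not called against GATA2 without the block and were called with it (adjusted p = 0.0114, 0.0228 and 0.00655). All 4 were also called without the filter on low counts (0.0206, 0.0068, 0.0215 and 0.0122), and Cyp11a1, Cd200r3 and Slc18a2 without R307W replicate 4 (0.0318, 0.0399 and 0.0281).

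The promoters of Cma1 and Ms4a2 are given as examples of a mast cell gene that fell and an IgE receptor gene without a call. They cover chr14:55944626-55944925 and chr19:11623670-11623969, both on the minus strand of GRCm38.p6, from RefSeq. Capitals mark AGATAG on the opposite strand 79 bases before the start of Cma1. In Ms4a2 they mark AGATAA 224 and 37 bases before the start on the opposite strand and 11 bases before it on the gene's own strand. Of 25 mast cell and basophil genes whose promoter RefSeq gave, 16 hold a match in any of their 33 promoters, and of 9 eosinophil genes, with 9 promoters, 5, where 33.0% of all 27025 genes with a promoter do.
Cma1: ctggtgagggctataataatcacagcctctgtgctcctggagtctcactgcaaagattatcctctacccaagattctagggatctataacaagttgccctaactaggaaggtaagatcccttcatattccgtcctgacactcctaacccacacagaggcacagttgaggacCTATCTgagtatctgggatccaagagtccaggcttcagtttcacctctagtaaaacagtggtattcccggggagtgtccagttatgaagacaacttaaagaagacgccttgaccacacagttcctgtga
Ms4a2: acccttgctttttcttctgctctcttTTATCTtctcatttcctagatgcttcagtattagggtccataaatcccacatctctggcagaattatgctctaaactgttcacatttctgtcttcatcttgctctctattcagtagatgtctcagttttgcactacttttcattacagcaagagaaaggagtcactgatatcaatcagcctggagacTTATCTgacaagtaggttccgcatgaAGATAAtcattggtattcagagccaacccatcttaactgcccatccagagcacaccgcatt

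**Figure D3:**
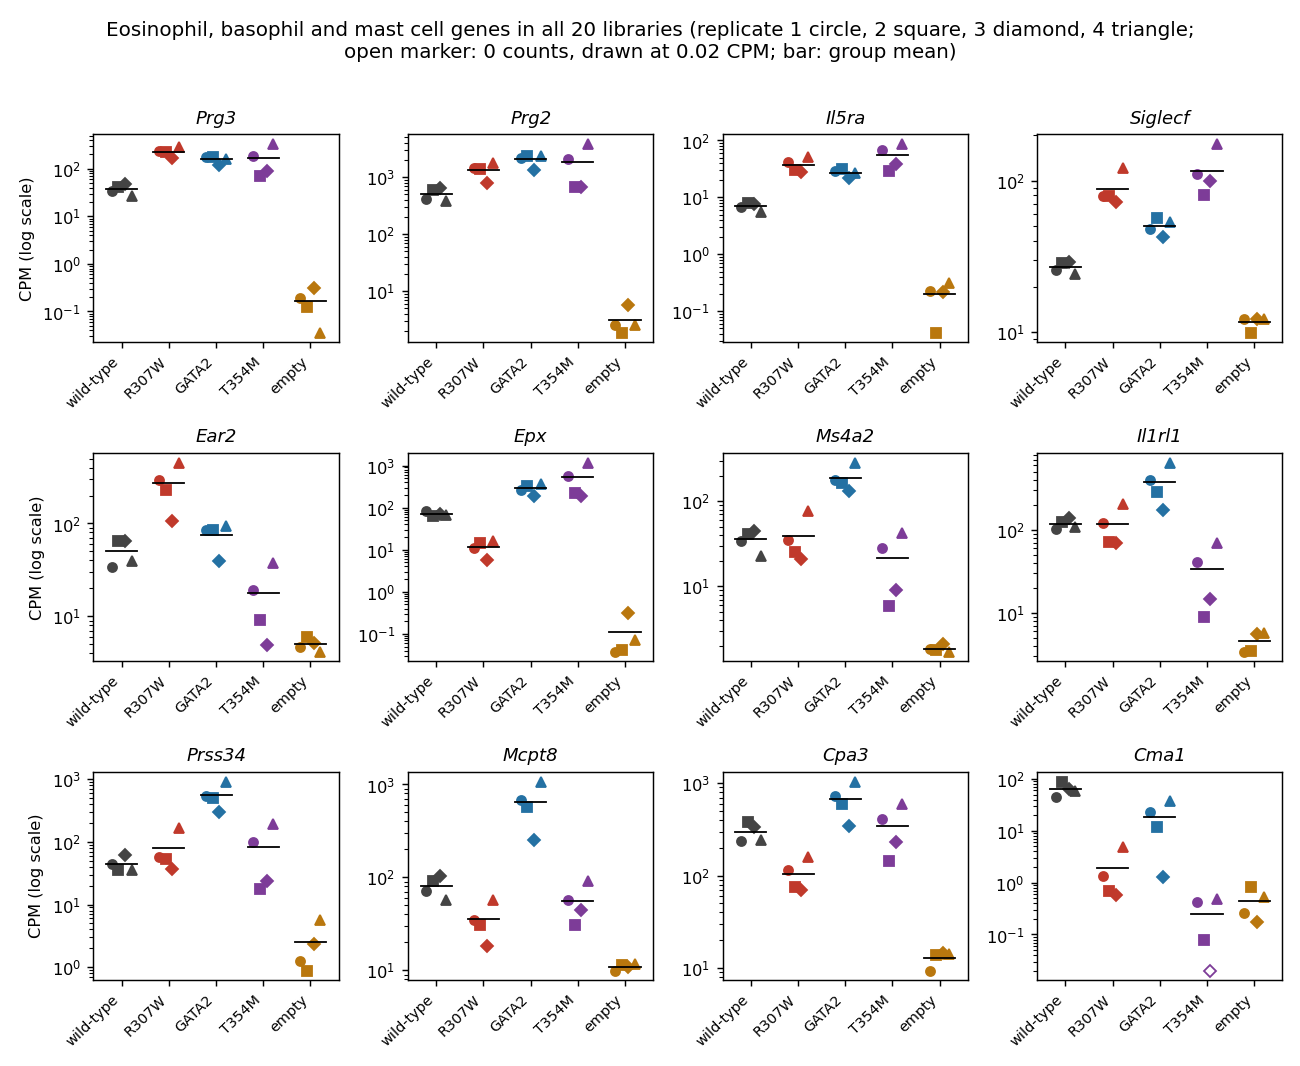
CPM (log scale) of 12 eosinophil, basophil and mast cell genes in the 20 libraries, with marker shapes for the replicate number and bars for group means; an open marker is a library with 0 counts. In R307W cells Prg3, Prg2, Il5ra, Siglecf and Ear2 lie above wild-type, Epx, Cpa3 and Cma1 below, and Ms4a2, Il1rl1 and Prss34 overlap it.

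The 2 neutrophil lists differed. Of 14 genes listed for the early, azurophil granule stage 7 rose (Calr, Cst7, Ctsc, Mgst1, Mpo, Nkg7 and Plac8) and Rgcc fell. Not all of these code for proteins of the granules. Of 27 genes of the later granules and their regulators 2 rose and 17 fell (medians of the 2 lists 0.43 and -1.93). With an empty vector 18 of the 27 were below wild-type and 5 above (median -1.57), where 43.3% of all genes changed. With GATA2 16 were below and 3 above (median -2.1), where 16% of all genes were lower and 14.7% higher. Between R307W and GATA2 1 was called, where 1.73% of all genes were. These comparisons share libraries. Mpo, myeloperoxidase, had 1694, 1309, 1177 and 1254 CPM in wild-type cells and 2660, 3810, 3155 and 4026 CPM in R307W cells. The groups do not overlap (2.51-fold, log2 difference 1.33, SE 0.16, adjusted p = 4.36e-06). Plac8 rose from 377 ± 117 to 1061 ± 33.6 CPM, Calr, an endoplasmic reticulum chaperone, from 899 ± 258 to 2050 ± 156 CPM, and Nkg7, a granule membrane protein, from 10.3 ± 2.46 to 38.6 ± 8.69 CPM. The azurophil granule proteases Elane, Prtn3 and Ctsg were not called (adjusted p = 0.0876, 0.601 and 0.589).

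Cebpa, the factor that commits progenitors to granulocytes, had 25.0 to 29.7 CPM in wild-type libraries and 84.9, 81.4, 82.5 and 109 CPM in R307W libraries (3.25-fold, log2 difference 1.70, SE 0.14, adjusted p = 3.25e-08). Mmp8, a collagenase, had 59.4, 178, 86.0 and 88.2 CPM in wild-type cells and 261, 246, 226 and 366 CPM in R307W cells, and it was the only granule protein of the later list to rise (2.67-fold, adjusted p = 0.00113). Gfi1, a transcriptional repressor that acts in neutrophil development, had a small fall (-0.33, adjusted p = 0.0244). Its call was lost without R307W replicate 1, 3 or 4 or wild-type replicate 1 or 2, at adjusted p = 0.057 to 0.0903.

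Ltf, lactoferrin, had 567, 1522, 861 and 989.7 CPM in wild-type cells and 37.4, 90.9, 31.5 and 40.7 CPM in R307W cells. All R307W libraries were far below the wild-type range (19.6-fold, log2 difference -4.30, SE 0.45, adjusted p = 6.97e-07). S100a9, a subunit of calprotectin, had 2541, 7029, 3707 and 3419 CPM in wild-type cells and 561, 874, 440.4 and 342 CPM in R307W cells (7.53-fold lower, adjusted p = 9.45e-07). Camp and Ngp, other proteins of the secondary granules, went from 271 ± 84.2 to 16.4 ± 11.1 and from 741 ± 317 to 39.3 ± 19.8 CPM. Wild-type replicate 2 was the highest in Ltf, S100a9, Camp, Ngp and Mmp8.

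Of 31 monocyte genes tested 20 were not called, 9 rose and 2 fell. Over all genes tested 33.5% changed, 16.5% higher and 17% lower. Only 3 of those that rose had groups that do not overlap, where 12.7% of all genes had every R307W library above wild-type. Ccr2, the chemokine receptor of inflammatory monocytes, had 100.4, 217, 153 and 106 CPM in wild-type cells and 470.1, 565, 523 and 299 CPM in R307W cells (3.22-fold, adjusted p = 0.000974). Cx3cr1, another monocyte chemokine receptor, rose from 6.88 ± 1.32 to 23.9 ± 6.67 CPM. Lyz2, lysozyme, and Ly6c2, a monocyte surface protein, had no call (adjusted p = 0.932 and 0.939), and Mrc1, the mannose receptor of macrophages, fell from 32.8 ± 8.88 to 12.3 ± 3.22 CPM. Replicate 4 of R307W decided much here: the summed list held 3164 to 4979 CPM in wild-type libraries and 4897, 6401, 5358 and 2307 CPM in R307W libraries, and without that library 15 genes rose in place of 9. The other gene that fell besides Mrc1 was Fn1, fibronectin, and 1 fell without wild-type replicate 4. Irf8, a regulator of monocytes and dendritic cells, had 39.3, 63.6 and 50.4 CPM in R307W replicates 1 to 3 and 12.1 CPM in replicate 4, under the 12.5 to 16.5 CPM of wild-type cells.

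Dendritic cell and MHC class II genes had more calls, 15 of 24 higher and 2 lower (median 1.62), and all 17 had groups that do not overlap. The number higher ran from 13 with only the 8 libraries to 19 without replicate 4 of every group. H2-Aa, the alpha chain of a class II molecule, had 4.26, 6.18, 4.60 and 4.59 CPM in wild-type cells and 20.5, 21.9, 28.4 and 13.01 CPM in R307W cells (4.27-fold, log2 difference 2.09, SE 0.36, adjusted p = 0.000188). Cd74, its chaperone, rose 3.38-fold and Ciita, the class II transactivator, 4.31-fold. Siglech, a receptor of plasmacytoid dendritic cells, rose from 0.163 ± 0.129 to 1.99 ± 1.25 CPM. Zbtb46 and Clec9a, listed as markers of classical dendritic cells, fell from 19.0 ± 4.43 to 2.13 ± 0.285 CPM and from 2.34 ± 0.945 to 0.320 ± 0.122 CPM. Which cells of the culture hold their RNA was not tested. Enhancer-null cells with an empty vector had more than R307W cells of 15 members of the list and less of none; H2-Aa was at 59.6 ± 17.6 CPM there.

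Of 13 lymphoid genes 6 rose and none fell, all from low levels. Cd7, an early lymphoid surface protein, went from 0.402 ± 0.132 to 4.91 ± 1.35 CPM, and Tcf7, a T cell factor, from 0.453 ± 0.224 to 2.47 ± 0.466 CPM. Ikzf3, the lymphoid factor Aiolos, had 4.65, 4.27, 6.01 and 4.70 CPM in wild-type cells and 15.6, 11.3, 8.75 and 22.7 CPM in R307W cells (2.98-fold, adjusted p = 0.00113).

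Genes of stem and early progenitor cells were mostly above wild-type level, with 17 of 31 higher and 5 lower. The number higher ran from 10 at 2-fold or more to 19 without R307W replicate 4. Flt3, the receptor of early multipotent progenitors, had 4.65, 8.93, 4.79 and 5.29 CPM in wild-type cells and 33.4, 41.6, 43.8 and 11.8 CPM in R307W cells. Replicate 4 of R307W was nearest to wild-type but still above it (5.52-fold, log2 difference 2.46, SE 0.43, adjusted p = 0.000197). Cd34 had 44.7 to 83.2 CPM in wild-type libraries and 218, 239, 255 and 123 CPM in R307W libraries (3.45-fold, adjusted p = 2.16e-05). Both genes were higher still with an empty vector, at 91.8 ± 9.38 and 399 ± 26.7 CPM.

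Against the empty vector 5 members of the list were higher with R307W and 8 lower, where 10% of all genes were higher and 7.48% lower. Against GATA2 1 was higher and 30 were not called, where 0.587% of all genes were higher and 1.14% lower. Compared with wild-type cells, GATA2 cells had 18 of the 31 higher and 4 lower, where 14.7% of all genes were higher and 16% lower. Ikzf2, the factor Helios, had 43.4, 42.1, 45.2 and 44.3 CPM in wild-type cells and 227, 154, 186 and 308 CPM in R307W cells. All R307W libraries were at least 3 times the wild-type range (5.01-fold, log2 difference 2.32, SE 0.21, adjusted p = 1.48e-07), while the empty vector gave 23.3 ± 2.22 CPM and GATA2 148 ± 24.6 CPM. Angpt1, a ligand of the TEK receptor, had 24.1 to 40.6 CPM in wild-type libraries and 153, 117, 134 and 196 CPM in R307W libraries (4.57-fold, adjusted p = 3.68e-07), against 45.1 ± 9.36 CPM with an empty vector and 119 ± 9.62 CPM with GATA2. Myb, a factor that keeps progenitors cycling, had 252 ± 19.7 CPM in wild-type, 454 ± 63.9 in R307W and 171 ± 11.1 in empty-vector cells. Meis1, a HOX cofactor, rose from 16.3 ± 0.494 to 33.1 ± 5.82 CPM and had 33.9 ± 2.58 CPM with an empty vector. Slamf1, Mllt3 and Prom1 fell, by 2.38, 1.86 and 1.96.

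Interferon response genes were above the wild-type level. Of 43 tested 31 rose and Isg20 fell (median 1.45), and 8 of the 31 had groups that do not overlap. The number that rose ran from 27 at 2-fold or more to 36 without replicate 4 of every group. R307W replicate 4 was the lowest of its group in Ifit3 and Psmb8. Ifit3, an antiviral protein, had 1.52, 8.93, 1.88 and 3.01 CPM in wild-type cells and 51.2, 52.0, 36.8 and 9.42 CPM in R307W cells (9.82-fold, log2 difference 3.30, SE 0.63, adjusted p = 0.000493), and 84.5 ± 25.6 CPM with an empty vector. Its neighbours Ifit3b and Ifit1bl1, which share sequence with it, rose 9.95-fold and 13.5-fold. Psmb8, a subunit of the immunoproteasome, had 20.1, 22.9, 18.6 and 15.5 CPM in wild-type cells and 62.8, 81.9, 66.9 and 59.0 CPM in R307W cells, where replicate 4 is only slightly under the rest (3.51-fold, SE 0.12 on the log2 scale, adjusted p = 4.96e-09). Summed, the list held 497.7 to 882.9 CPM in wild-type libraries and 1556, 1669, 1422 and 679 CPM in R307W libraries. Against the empty vector 20 of these genes were lower in R307W cells and none higher.

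Among 28 innate immune receptors and sensors 15 rose and Trem1 fell, and without R307W replicate 4 the number that rose was 23. Tmem173, the sensor adaptor STING, rose from 12.8 ± 2.39 to 36.2 ± 3.99 CPM (1.50, SE 0.13, adjusted p = 1.13e-07), and Aim2, a DNA sensor, 2.31-fold. The call of Trem1 was lost without R307W replicate 4 or wild-type replicate 2 (adjusted p = 0.0562 and 0.111). Fc receptors followed with 4 of 8 higher, 2 without wild-type replicate 3 or without wild-type replicate 4. Fcgr3, a low-affinity IgG receptor, went from 171 ± 36.2 to 407 ± 77.9 CPM.

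**Figure D4:**
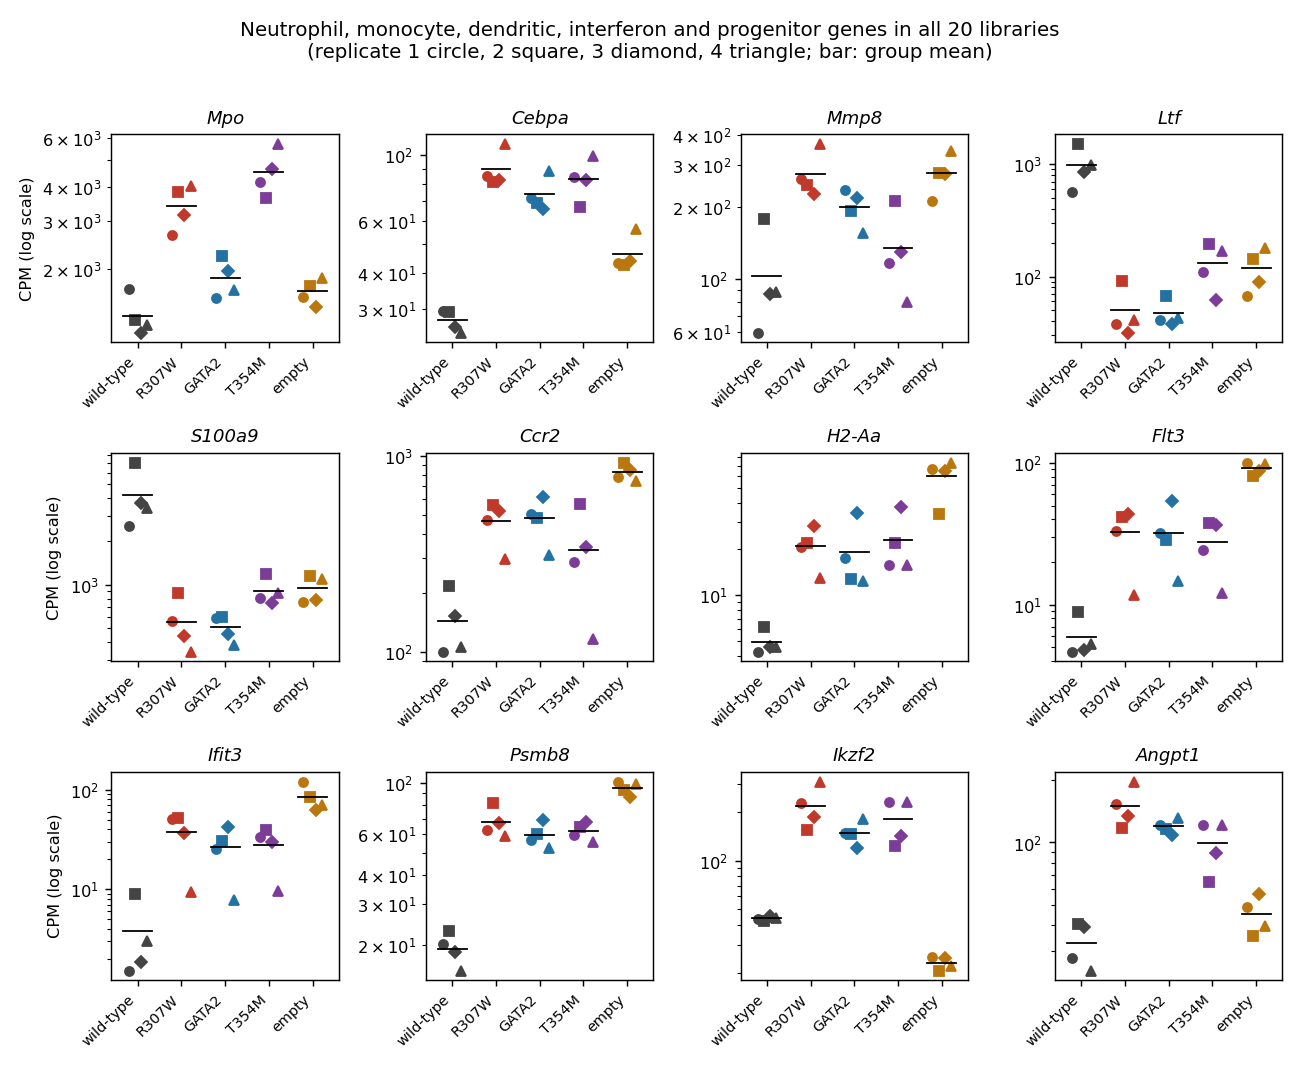
CPM (log scale) of 12 neutrophil, monocyte, dendritic cell, interferon and progenitor genes in the 20 libraries, with marker shapes for the replicate number and bars for group means. Mpo, Cebpa and Ikzf2 lie above wild-type in every R307W library, Ltf and S100a9 below, and in Ccr2, H2-Aa, Flt3 and Ifit3 the R307W means lie between wild-type and empty vector, with replicate 4 (triangle) the lowest of its group.

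Receptors for growth factors and cytokines were called higher in 16 of 32 and lower in 5. Besides Il5ra and Flt3, Csf2rb, the beta chain that the IL-3, IL-5 and GM-CSF receptors share, rose from 253 ± 15.5 to 620.5 ± 196 CPM (1.29, SE 0.20, adjusted p = 4.73e-05). Among those that fell were Epor, Kit, Osmr and Il18r1. Without wild-type replicate 4, 3 fell. Of 24 cytokines and chemokines 3 rose and 4 fell, where 16.5% of all genes tested rose and 17% fell. Csf1, the macrophage growth factor, had 30.4, 27.6, 30.7 and 19.8 CPM in wild-type cells and 85.3, 53.2, 45.5 and 163 CPM in R307W cells (3.21-fold, adjusted p = 0.00368), against 10.5 ± 2.74 CPM with an empty vector. Ccl6, a chemokine of myeloid cells, fell from 125 ± 31.4 to 60.5 ± 16.3 CPM, and Lif and Tnfsf13b, both secreted factors, by 1.77 and 2.15 on the log2 scale from under 2 CPM.

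Cell cycle genes were slightly lower. Of 37 tested 16 fell and 2 rose, Cdk6 and Ccnd2, and the list's median was -0.22. Mki67, a marker of dividing cells, had 1748, 2304, 2493 and 2303 CPM in wild-type cells and 1578, 1264, 1316 and 1580 CPM in R307W cells (1.54-fold lower, log2 difference -0.62, SE 0.11, adjusted p = 0.000152). Ccne1, cyclin E1, fell most, from 68.8 ± 10.7 to 25.8 ± 2.65 CPM, and Top2a, a topoisomerase of dividing cells, was not called (adjusted p = 0.376). With limma on log2(TPM + 1) 8 members fell. Glycolysis and hypoxia genes split, with 3 of 19 higher and 5 lower, where 16.5% of all genes tested rose and 17% fell. Hk2, an inducible hexokinase, rose from 74.1 ± 9.29 to 134 ± 19.3 CPM and Hk1, its housekeeping relative, fell from 135 ± 26.3 to 70.2 ± 13.2 CPM. The number higher was 1 without wild-type replicate 1, and the number lower 3 without R307W replicate 3 or wild-type replicate 4. In the cell cycle list 1 gene rose without R307W replicate 1 or 3 or wild-type replicate 2 or 3.

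Outside the lists, the genes with the largest gains were a mixed group. Heph, a copper-dependent ferroxidase that helps iron leave cells, had 1.30, 1.67, 1.36 and 0.992 CPM in wild-type cells and 25.6, 20.9, 21.8 and 50.4 CPM in R307W cells. All R307W libraries were more than 10 times the wild-type level (22.4-fold, log2 difference 4.48, SE 0.39, adjusted p = 8.3e-08). It had 7.60 ± 3.16 CPM with GATA2, 1.81 ± 0.556 with T354M and 0.563 ± 0.345 with an empty vector, and R307W was higher than each of them (adjusted p = 0.00322, 4.61e-06 and 4.95e-08). Scin, the actin-severing protein scinderin, had 36.5, 40.8, 41.5 and 27.0 CPM in wild-type cells and 399, 297, 362 and 752 CPM in R307W cells (12.4-fold, adjusted p = 1.41e-07).

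Nepn, a leucine-rich repeat proteoglycan, had 0.0735 to 0.174 CPM in wild-type libraries and 5.40, 2.70, 1.49 and 19.4 CPM in R307W libraries (58.2-fold, log2 difference 5.86, SE 0.87, adjusted p = 7.31e-05). Csrp3, a muscle LIM protein, had 1.04, 1.82, 1.60 and 1.29 CPM in wild-type cells and 22.9, 11.5, 10.4 and 47.7 CPM in R307W cells (16.2-fold, adjusted p = 1.5e-05). In both genes replicate 4 of R307W was the highest and none of its libraries overlapped wild-type. Others with a gain above 7-fold were Pdzd4, Pdzph1, Cd96 and Klhl3, at 0.334 to 3.08 CPM in wild-type cells and 5.20 to 40.1 CPM in R307W cells.

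Ces1d, a carboxylesterase, was higher with R307W than in any other group. It had 2.44, 5.69, 3.10 and 3.34 CPM in wild-type cells and 22.7, 18.5, 11.8 and 34.9 CPM in R307W cells, with no overlap (6.05-fold, log2 difference 2.60, SE 0.34, adjusted p = 7.88e-06). With GATA2 it had 1.30 ± 0.403 CPM, under the wild-type level (GATA2 minus wild-type -1.48, SE 0.35, adjusted p = 0.0032), with T354M 0.843 ± 0.271 and with an empty vector 0.257 ± 0.13 CPM. R307W minus GATA2 was 4.07 (SE 0.36, adjusted p = 1.62e-05). Klhl3, an adaptor of a ubiquitin ligase, and Rgs7bp, a binding partner of an RGS protein, were also higher than with GATA2, by 2.08 and 1.95.

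Deep falls were also found in genes of no list: Btnl10, a butyrophilin, went from 19.6 ± 5.65 to 0.150 ± 0.175 CPM, Ypel4 from 12.7 ± 3.99 to 0.110 ± 0.0752 CPM and Slc30a10, a manganese exporter, from 41.2 ± 16.6 to 0.558 ± 0.265 CPM. In the red cell membrane list, Dmtn and Epb42, both of the membrane skeleton, fell by 6.32 and 6.03 on the log2 scale.

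Around Gata2 itself, 32 genes within 1 Mb of its start were tested, of which 12 were lower and 4 higher. Over all genes tested 17% were lower and 16.5% higher. Among the 12, the predicted genes Gm44005, Gm43999 and Gm44001 lie inside Mgll on its own strand. Their falls may therefore not be separate from that of Mgll. Mgll, monoglyceride lipase, at 88724412 to 88828360 of chromosome 6 (GRCm38), had 18.0, 18.6, 23.6 and 25.1 CPM in wild-type cells and 2.62, 2.43, 2.15 and 1.93 CPM in R307W cells. The fall was 9.35-fold with tight replicates (log2 difference -3.22, SE 0.19, adjusted p = 1.01e-09). The other enhancer-null groups had 2.41 ± 0.171 CPM with an empty vector, 2.14 ± 0.467 with GATA2 and 3.51 ± 0.794 with T354M, none of which differed from R307W at the threshold (adjusted p = 0.804, 1 and 0.0709). Gp9, a platelet glycoprotein gene in the same window, fell from 11.1 ± 4.70 to 2.62 ± 0.613 CPM, and Rpn1 and Sec61a1, which code for parts of the secretory pathway's entry machinery, rose 1.32-fold and 1.35-fold.

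Markers of other liver cells were checked in the same libraries. Of 18 hepatocyte genes 9 were called lower, among them Afp, alpha-fetoprotein, at 1055 ± 610.3 and 348 ± 234 CPM (adjusted p = 0.0427, lost without R307W replicate 2, 3 or 4 or wild-type replicate 1 or 2 at 0.0688 to 0.153), while in none did all R307W libraries lie below all wild-type ones. The summed list held 4245, 2581, 1028 and 1756 CPM in wild-type replicates 1 to 4 and 1509, 842, 672.3 and 191.5 CPM in R307W replicates 1 to 4. The count moved with single libraries: none was left without R307W replicate 3, R307W replicate 4 or wild-type replicate 1, 2 were left without R307W replicate 2, and 17 and 14 were called without R307W replicate 1 or wild-type replicate 3. The count was 14 with DESeq2, 16 without the filter on low counts, 5 with limma and 4 with only the 8 libraries. Among 18 markers of endothelium and stroma, 5 fell and 2 rose, Pecam1 and Pdgfrb, where 17% of all genes tested fell and 16.5% rose. Pdgfrb, a receptor for platelet-derived growth factor, went from 3.55 ± 0.495 to 26.1 ± 10.1 CPM and had 26.6 ± 6.80 CPM with GATA2. Their sum came to 383.8 to 690.7 CPM in wild-type and 510.5 to 687.1 CPM in R307W libraries. Their part in the other results was not tested.

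**Figure D5:**
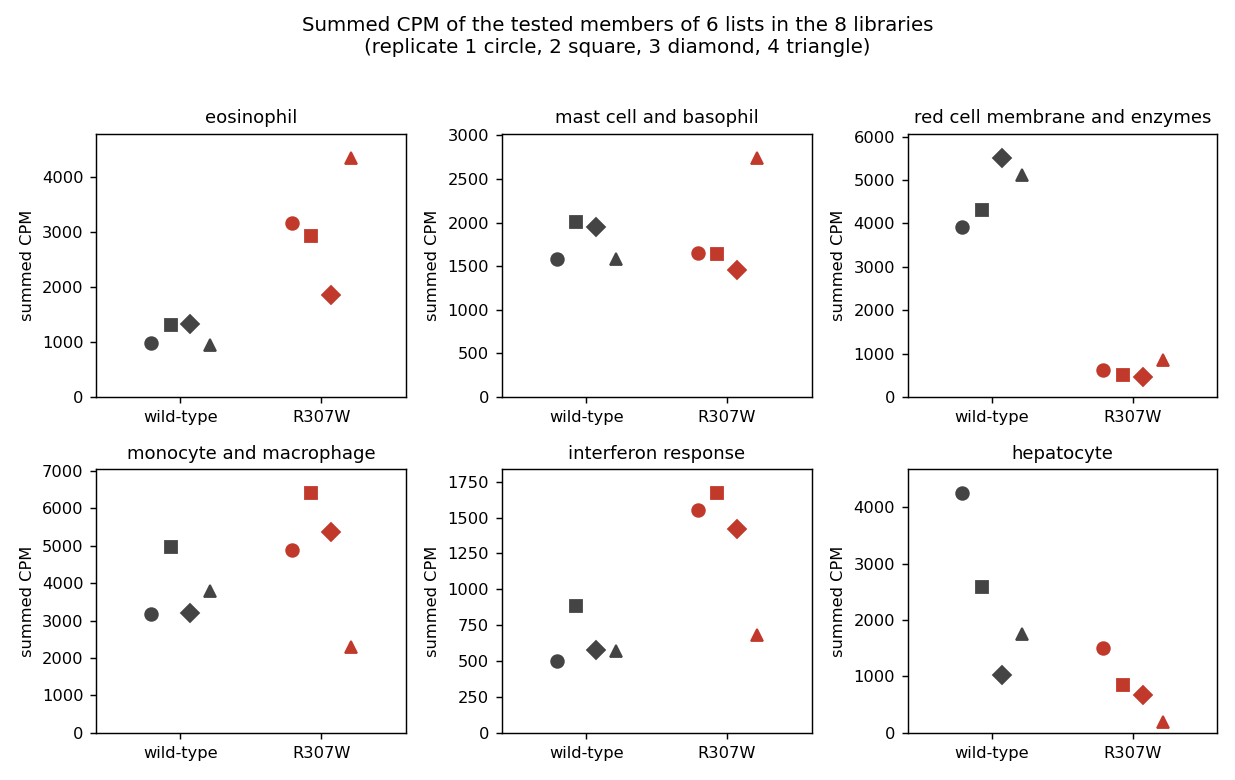
Summed CPM (linear axis from 0) of the tested members of 6 gene lists in the 4 wild-type and 4 R307W libraries, with marker shapes for the replicate number. Red cell membrane genes separate fully, eosinophil genes separate with R307W replicate 4 highest at 4358 CPM, and mast cell and basophil, monocyte, interferon and hepatocyte sums place R307W replicate 4 at the top or bottom of its group.

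Side by side, 6859 genes (43.3%) differed from wild-type when the null cells had an empty vector, 4869 when they had GATA2 and 5310 when they had R307W, and all 3 counts rest on the same 4 wild-type libraries. Against the empty vector R307W changed 2773 genes, 1589 higher and 1184 lower. Of these calls 57.3% were higher. Without R307W replicate 4 there were 1276, 75.2% of them higher, and without replicate 4 of the empty vector 1764, 69.3% of them higher. Against GATA2 it differed in 274 genes, 93 higher and 181 lower, and in 441 with the replicate block. That count fell to 126 without replicate 4 of GATA2, 177 without its replicate 1, and 162, 170 and 166 without R307W replicate 1, 2 or 3. Against T354M it differed in 553 genes, 364 higher and 189 lower, in 888 with the block, and in 282 and 364 without R307W replicate 4 or 1. Of the 14 genes listed for the azurophil granule stage 5 were above the GATA2 level, as were 0.587% of all genes tested. Mpo was at 1864 ± 297 CPM with GATA2 (R307W minus GATA2 0.87, SE 0.16, adjusted p = 0.00603).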

How the data were processed

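Total RNA of 20 libraries, 4 in each of 5 groups, was sequenced after 3 days of culture. Per the submitters' processing notes, the authors used STAR 2.5.2b, RSEM 1.3.0 and the mm10 build, and they deposited an expected count and a TPM value for each gene and library. Symbols were matched by Ensembl identifier for 53274 of 53379 genes, and no further column of values per sample was found (0 unmapped).

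The expected counts were rounded, 15835 genes passed edgeR's filterByExpr, and libraries were scaled by TMM. A quasi-likelihood model with 5 group means was fitted to all 20 libraries (edgeR 4.0.16, R 4.3.3, 15 residual degrees of freedom), with Benjamini-Hochberg adjustment over all genes and a threshold of 0.05. On simulated data with 50 genes at each fold, it called 50 at 0.25, 45 at 0.5, 41 at 2 and 50 at 4, with 11 false calls. The simulation gave every gene the same dispersion (0.0468), drew libraries independently and changed no other genes. Its figures need not hold for the real libraries, which differ in these points. Alternatives were DESeq2 1.42.0, limma 3.58.1 on log2(TPM + 1) from the deposited TPM values, other filters and scalings, and leaving out libraries.

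Replicate numbers were taken from the labels. Deviations of same-numbered R307W and GATA2 libraries correlated at 0.482, 0.219, 0.444 and 0.623, and R307W and T354M at 0.478, 0.291, 0.204 and 0.667, so the blocked fit is given beside these. Some libraries with different numbers correlated as well or better. R307W replicate 2 and GATA2 replicate 3 correlated at 0.221, and R307W replicate 3 and T354M replicate 2 at 0.338. No 2 libraries of a group agreed within sampling noise (chi-square per degree of freedom at least 27.55).

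Genes were named by rule: Gata2 and its partners, the 12 highest and 12 lowest called differences at 5 CPM or more in 1 of the 2 groups with all libraries apart, in each list the 3 lowest adjusted p-values and 1 in the opposite direction, the 4 highest and 4 lowest against GATA2, and called genes within 1 Mb of Gata2. Others were added with their values known, and some genes are not reported here. The members and lists were chosen with earlier results of these data known. Promoters are RefSeq sequences on GRCm38.p6.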

Additional observations from a re-analysis of the deposited data

Results flagged for a closer look

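Of 160 groups of 4 values examined, 10 held a library far from the other 3 by Dixon's test at its 95% level, and chance marks about 1 group in 20. In R307W cells, replicate 4 was the high value in 6 of them. It had 122 CPM of Siglecf (others 72.0 to 79.7), 166 CPM of Prss34 (36.6 to 57.9), 580.1 CPM of Hdc (357 to 373), 109 CPM of Cebpa (81.4 to 84.9) and 50.4 CPM of Heph (20.9 to 25.6), and its summed mast cell and basophil genes came to 2745 CPM (1457 to 1651). Replicate 2 of R307W was the high value for Alas2 at 2.12 CPM (0.914 to 0.991), for Ltf at 90.9 CPM (31.5 to 40.7) and for Tpsb2 at 0.0386 CPM, a single count where the other 3 had 0. In wild-type cells Flt3 stood out in replicate 2 at 8.93 CPM (4.65 to 5.29).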

How the results depend on the processing

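Of 221 named genes called between R307W and wild-type, none reversed under the alternatives run. Leaving out single libraries took the calls of 8 to 17, limma on log2(TPM + 1) of 19, the 8 libraries alone of 16, the replicate block of 1 on all 20 libraries and of 18 on the 8, and leaving out wild-type replicates 2 and 3, a setting chosen after seeing the data, of 19. The total of 5310 was 3734 (1712 higher) with only the 8 libraries, 3258 (1395 higher) when these were also blocked, 6134 with the block on all 20, 2313 (780 higher, 1533 lower) at 2-fold or more, and 4687 to 5343 when 1 library was left out. Same-numbered R307W and wild-type libraries correlated at -0.06, 0.107, -0.105 and 0.058, so the block shares only a number there; with it on all 20 libraries 18 of 18 hepatocyte genes were called lower in place of 9. The 274 genes against GATA2 became 430 with DESeq2, 117 with 8 libraries, 441 and 940 with the block on all 20 and on 8, 162 without replicate 4 of every group, 185 at 2-fold and 126 to 376 with 1 library left out. The 2773 against the empty vector (57.3% higher) became 3323 (48%) with DESeq2 and 4097 (50%) with the block on all 20. They became 1143 at 2-fold, 1509 without replicate 4 of every group and 1276 to 2976 with 1 left out. Same-numbered R307W and empty-vector libraries correlated at 0.311, 0.019, 0.199 and 0.271. For R307W replicates 1, 3 and 4 no other empty-vector library correlated higher, and the labels do not say what the number marks. The 553 against T354M became 309 at 2-fold, 360 with limma, 250 with 8 libraries, 888 and 1089 with the block, 316 without replicate 4 of every group and 282 to 573 with 1 left out. At 2-fold 2972 genes differed between empty vector and wild-type and 2002 between GATA2 and wild-type. Fewer libraries or a fold limit are part of these settings, and the cause of the other shifts was not tested. Genes under 1 CPM rest on few counts.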
